A study of Mus musculus with 12 samples.

Results

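The comparison sets 4 RNA-seq libraries whose treatment label is CpG-STAT3dODN against 4 whose treatment label is PBS, 8 of the 12 libraries of the series. In the files, the column headers do not match these labels. The libraries labelled CpG-STAT3dODN are headed SCR_rep1 to SCR_rep4, those labelled PBS are headed DEC_rep1 to DEC_rep4, and the remaining 4, labelled CpG-scrODN, are headed PBS. Groups are therefore named by label and header together, as CpG-STAT3dODN/SCR and PBS/DEC libraries, and values are not read as the effect of a given treatment. If the headers and not the labels are right, the same values compare a scrambled with a decoy oligonucleotide. RPKM is a read count scaled to transcript length and to the mapped reads of a library. Of 24310 features, 10764 reached an RPKM of 1 in 4 or more of the 8 libraries and entered the comparison.

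All libraries came from CMM, a GFP-marked mouse acute myeloid leukaemia line that carries the Cbfb-MYH11 fusion, engrafted by vein into C57BL/6 mice. The host's own immune system was thus present. Mice were injected by vein 3 times, on alternate days, with PBS, with CpG-scrODN or with CpG-STAT3dODN, beginning at about 1% GFP positive leukaemia cells in blood. The spleen was collected 1 day after the final dose, and positive selection enriched it for c-Kit bearing cells. No label ties each library to a separate mouse. The p-values therefore measure the spread between these samples only, and that spread may be technical.

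CpG oligonucleotides are DNA ligands of TLR9, a receptor of the endosome in B cells, plasmacytoid dendritic cells and some myeloid cells. Unc93b1 carries TLR9 to the endosome, where ligand binding signals through Myd88 to NF-kB and interferon regulatory factors. STAT3 is a transcription factor activated by cytokine receptors, and a decoy oligonucleotide carries its binding site so as to hold it away from chromatin. The series design names leukaemic cell differentiation as its question. Irf8 is a transcription factor of monocyte, dendritic cell and B cell development.

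Differences were tested on log2(RPKM + 1) with limma, a linear model whose variances are moderated over all genes. The 78 genes past a Benjamini-Hochberg adjusted p of 0.05 are 0.725% of those tested. All 78 were lower in the CpG-STAT3dODN/SCR libraries than in the PBS/DEC libraries, and 0 were higher. At an unadjusted p under 0.05 the counts were 594 lower (5.52%) and 167 higher (1.55%), 7.07% in all. The 4 and 4 values did not overlap in 458 genes that were lower (4.25%) and 88 that were higher (0.818%), 5.07% in either direction. Over all tested genes the median difference was -0.01, and 54% of differences were below 0. With both libraries numbered 4 left out, 220 genes passed (2.04%), 214 lower (1.99%) and 6 higher (0.0557%), among them 77 of the 78. Single libraries moved the count too. It was 15 without PBS/DEC replicate 1, 27 without replicate 3 and 119 without replicate 4. It was 36, 15 and 35 without CpG-STAT3dODN/SCR replicates 1, 2 and 3.

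**Figure D1:**
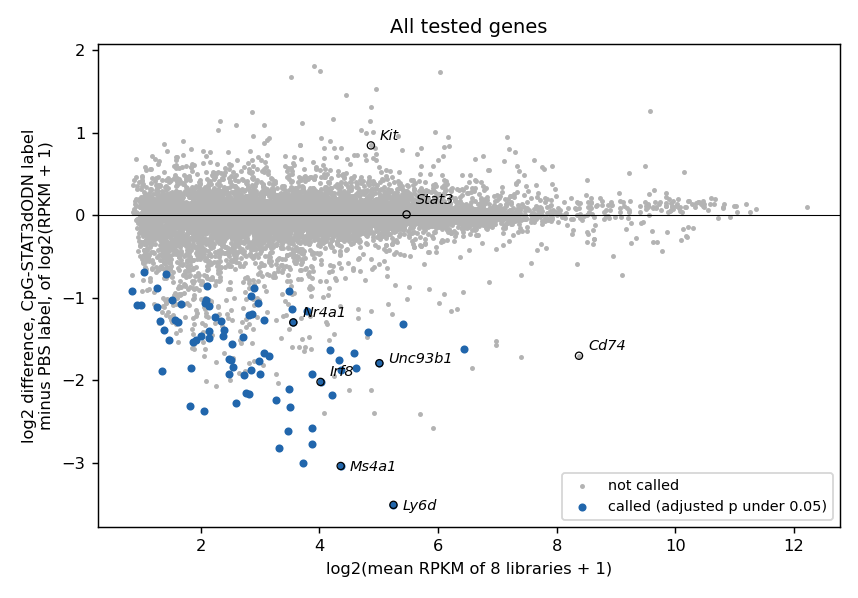
Each point is a gene. The horizontal axis is log2 of the mean RPKM of the 8 libraries plus 1, and the vertical axis is the difference of log2(RPKM + 1), CpG-STAT3dODN label (headed SCR) minus PBS label (headed DEC). The 78 called genes lie between -3.51 and -0.69, and none lies above 0, while Stat3 sits at 0.01.

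Stretches of the 250 bases upstream of a RefSeq transcript start (build GRCm38) are printed for 3 called genes, chosen because they hold a searched motif and stand for the groups of genes described next. They are Irf8, Cd22, a B cell receptor co-inhibitor, and Bank1, a B cell adaptor protein. Capitals mark the motif. They are the STAT letters TTCNNNGAA in Irf8 (chr8:120736108-120736357, plus strand), whose matches begin at -171 and -153 from the start. In Cd22 (chr7:30879029-30879278, minus strand) they are the EBF letters TCCC and GGGA with 2 bases between them, at -49, and in Bank1 (chr3:136326067-136326316, minus strand) the ETS-IRF letters GGAA and GAAA with 2 bases between them, at -66, matched on the opposite strand. The Cd22 stretch lies inside the span of the gene (chr7:30865404-30880342), upstream of an internal transcript start. Another Irf8 stretch, chr8:120738389-120738638, is not printed and held no STAT letters.
Irf8: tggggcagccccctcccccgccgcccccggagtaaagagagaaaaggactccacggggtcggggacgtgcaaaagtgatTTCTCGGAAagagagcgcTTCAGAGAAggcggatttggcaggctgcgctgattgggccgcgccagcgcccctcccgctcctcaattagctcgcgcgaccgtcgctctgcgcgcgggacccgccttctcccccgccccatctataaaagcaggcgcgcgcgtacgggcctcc
Cd22: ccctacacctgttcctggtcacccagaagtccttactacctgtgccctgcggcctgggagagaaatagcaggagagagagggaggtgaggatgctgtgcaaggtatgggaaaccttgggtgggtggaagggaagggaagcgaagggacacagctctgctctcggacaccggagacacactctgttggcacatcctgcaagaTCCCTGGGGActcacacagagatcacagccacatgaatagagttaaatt
Bank1: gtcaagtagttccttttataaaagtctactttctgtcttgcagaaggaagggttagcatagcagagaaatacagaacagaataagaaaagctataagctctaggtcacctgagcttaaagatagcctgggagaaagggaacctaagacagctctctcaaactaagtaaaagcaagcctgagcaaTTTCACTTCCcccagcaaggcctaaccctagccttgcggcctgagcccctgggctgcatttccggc

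RefSeq windows of 300 bases, 250 before and 50 after the start, were matched for 52 of the 78 called genes, 68 windows. Both strands were searched, and a stretch that fits more than 1 motif was counted under each. STAT letters were in 8.82% of these windows, 6.96% of the 10470 windows of tested genes and 8.3% of all 32851. ETS-IRF letters were in 4.41%, 2.41% and 2.72% of the same sets, and EBF letters in 1.47%, 1% and 0.904%. Interferon response letters, GAAA repeated after 2 bases, were in 8.82%, 3.14% and 3.44%, those of the octamer ATTTGCAT in 1.47%, 1.23% and 1.74%, and the CCAAT box, read as ATTGG, in 33.8%, 37.9% and 37.4%. Ifi203 and Plk2, described further on, were among the called genes with interferon response letters. Only 6 of the 68 windows held these letters, and windows of the same gene or of related genes are not independent. A match describes the letters only.

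Of 18 tested markers of B cells, 11 were called lower in the CpG-STAT3dODN/SCR libraries, all 18 had an unadjusted p under 0.05, and the groups did not overlap in 17. Over all tested genes these shares were 0.725%, 7.07% and 5.07%. The median difference of the 18 was -2.22, against -0.01 over all genes. Their mean log2(RPKM + 1) was 4.05, 3.64, 3.90 and 4.82 in PBS/DEC replicates 1 to 4, and 2.13, 1.60, 1.92 and 2.53 in CpG-STAT3dODN/SCR replicates 1 to 4. Replicate 4 was the highest library of each group. Fewer B cells and less of these RNAs per cell cannot be told apart in bulk libraries.

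Ly6d, a surface antigen of B lineage and plasmacytoid dendritic cells on chr15:74762056-74763567, fell most. It measured 75.7, 47.6, 62.3 and 90.5 RPKM in PBS/DEC replicates 1 to 4. It measured 5.46, 3.58, 5.87 and 5.25 RPKM in CpG-STAT3dODN/SCR replicates 1 to 4. The lowest PBS/DEC library was several times the highest of the other group, and the ratio of the group means was 13.7. Its difference was -3.51 ± 0.21 (SE, n = 4 and 4; limma adjusted p = 0.000863).

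Ms4a1, which encodes the B cell antigen CD20 (chr19:11249679-11266149), followed. Its values were 41.4, 22.1, 30.1 and 49.3 RPKM in PBS/DEC replicates 1 to 4 and 4.23, 2.22, 3.46 and 3.43 in CpG-STAT3dODN/SCR replicates 1 to 4. The groups were far apart, and replicate 2 was the lowest in each. The difference was -3.04 ± 0.25 (limma adjusted p = 0.00218). Cd22 (chr7:30865404-30880342) measured 31.2, 18.4, 23.7 and 25.3 RPKM against 4.15, 2.39, 3.26 and 1.46 RPKM, replicates 1 to 4 in that order. Its difference was -2.78 ± 0.24 (limma adjusted p = 0.00279), and here replicate 4 of the CpG-STAT3dODN/SCR group was the lowest.

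Blnk, the central adaptor of B cell receptor signalling (chr19:40928927-40994221), read 15.7, 13.2, 15.4 and 27.8 RPKM in PBS/DEC replicates 1 to 4 and 2.10, 1.19, 1.82 and 3.14 in CpG-STAT3dODN/SCR replicates 1 to 4, a difference of -2.62 ± 0.26 (limma adjusted p = 0.00547). Replicate 4 was the highest library in both groups. Siglecg, an inhibitory lectin that dampens B cell receptor signals (chr7:43408192-43418349), was the steadiest of the large falls. It read 15.9, 13.2, 15.5 and 14.9 RPKM against 3.25, 1.67, 2.68 and 2.06 RPKM, with a difference of -2.24 ± 0.15 (limma adjusted p = 0.00125). Blk, a Src family kinase of B cells, fell by 2.16 on the log2 scale and Cd72, a coreceptor, by 2.58.

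Pax5, a transcription factor which holds cells to the B lineage (chr4:44524748-44710694), measured 8.38, 5.01, 7.71 and 15.5 RPKM in PBS/DEC replicates 1 to 4 and 1.23, 0.637, 0.991 and 1.02 in CpG-STAT3dODN/SCR replicates 1 to 4. The groups did not overlap, and the PBS/DEC library numbered 4 was the highest of the 8. The difference was -2.28 ± 0.28 (limma adjusted p = 0.0136). Spib, an ETS factor of B and plasmacytoid dendritic cells, fell by 2.32 (limma adjusted p = 0.038). The list of early B lymphoid genes had 0 called of 5, 2 at an unadjusted p under 0.05, and a median of -0.54.

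The 15 largest falls also held Fcrla (-3), an intracellular Fc receptor-like protein of B cells, Cd2 (-2.83), an adhesion molecule of T cells that mouse B cells also carry, Fcrl5 (-2.38), Cd38 (-2.17), an NAD glycohydrolase, and Cdh17 (-2.31), a cadherin. Cdh17 was near 0 in the CpG-STAT3dODN/SCR libraries, between 0.0397 and 0.0928 RPKM, and between 2.04 and 10.2 RPKM in the PBS/DEC libraries. Mzb1, an endoplasmic reticulum protein of antibody-secreting and innate-like B cells, fell by 2.18, and Jchain, the joining chain of secreted IgM and IgA, by 1.67. They were the 2 called of 8 plasma cell genes, whose median was -0.55.

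**Figure D2:**
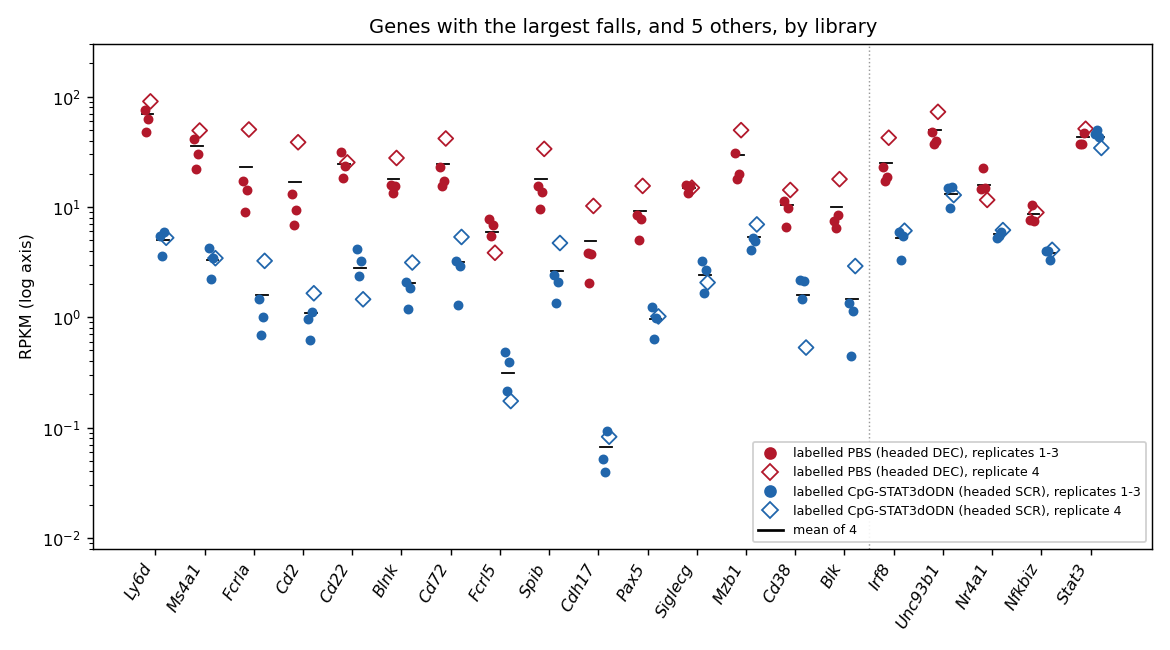
RPKM on a log axis for the 15 genes with the largest falls, then Irf8, Unc93b1, Nr4a1, Nfkbiz and Stat3. Red marks the PBS label (headed DEC) and blue the CpG-STAT3dODN label (headed SCR); circles are replicates 1 to 3, open diamonds replicate 4, and black bars the mean of 4. Red and blue overlap for Stat3 alone.

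The defining B cell genes Cd79a and Cd79b did not pass, and were picked for mention after their values were seen. Cd79b, a signalling chain of the B cell receptor, measured 60.2, 35.3, 52.8 and 260 RPKM in PBS/DEC replicates 1 to 4 and 9.68, 4.71, 7.57 and 45.6 in CpG-STAT3dODN/SCR replicates 1 to 4. Replicate 4 was several times the other libraries of its own group on both sides, and the groups overlapped because of it. The difference was -2.58 ± 0.77 (limma adjusted p = 0.313), and without both libraries numbered 4 the adjusted p was 0.0082. For Cd79a the limma adjusted p was 0.114 with all 8 libraries and 0.00763 without those numbered 4. In that reduced fit 17 of the 18 B cell markers were called lower.

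Some calls were also lost when a single library was left out. The 12 genes called whichever library was left out were Ly6d, Ms4a1, Cd22, Blnk, Fcrl5, Siglecg, Bank1, Fcrl1, Ptpn22, Tlr1, Plk2 and Cd37, named here for that reason. Pax5 was lost without PBS/DEC replicate 1 (limma adjusted p = 0.0615) or CpG-STAT3dODN/SCR replicate 2 (0.0621). The calls of Fcrla, Cd72 and Spib were lost without PBS/DEC replicate 1 or 3 or CpG-STAT3dODN/SCR replicate 1, 2 or 3, with limma adjusted p-values up to 0.142. Their differences stayed well below 0 whichever library was left out. They ranged from -3.32 to -2.54 for Fcrla, from -2.81 to -2.29 for Cd72 and from -2.565 to -1.988 for Spib. Those of Cd2, Cdh17 and Blk each held in 2 of the 8 such fits, of Mzb1 in 4 and of Cd38 and Jchain in 5.

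Irf8 was the only called gene of the 17 tested that are named with the study. The gene (chr8:120736358-120756694), whose upstream STAT letters are printed above, read 22.8, 17.2, 18.5 and 42.4 RPKM in PBS/DEC replicates 1 to 4. It read 5.93, 3.28, 5.43 and 6.09 RPKM in CpG-STAT3dODN/SCR replicates 1 to 4. No library of the second group reached the lowest of the first, and the means differed 4.87-fold. Its difference was -2.02 ± 0.29 (limma adjusted p = 0.0188). The libraries labelled CpG-scrODN (headed PBS) read 3.47, 4.41, 3.15 and 2.33 RPKM, below every PBS/DEC library. This was not particular to Irf8. In 76 of the 78 called genes every library labelled CpG-scrODN was below every PBS/DEC library, and in all 78 the mean was lower. In 71 the CpG-scrODN mean was also below the CpG-STAT3dODN/SCR mean. The call of Irf8 was lost without PBS/DEC replicate 1 or 3 or CpG-STAT3dODN/SCR replicate 1, 2 or 3 (limma adjusted p from 0.0569 to 0.0789), and with no filter on low values (0.0538). Its difference in the fits without 1 library ranged from -2.17 to -1.75. With the B cell list's mean per library as a covariate the Irf8 difference was -0.02 (limma adjusted p = 0.971). In that fit the covariate and the groups are hard to separate, since the groups account for a share of 0.873 of its variance.

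Stat3 itself, on chr11:100886806-100939594, did not differ beyond its spread. It measured 37.5, 37.5, 46.7 and 51.1 RPKM in PBS/DEC replicates 1 to 4 and 45.9, 50.3, 43.3 and 34.2 in CpG-STAT3dODN/SCR replicates 1 to 4. The groups overlapped throughout. The difference was 0.01, with a 95% interval from -0.34 to 0.35 (limma adjusted p = 1). A decoy acts on the protein, so the mRNA level does not test it. Of 29 tested genes known as STAT3 targets 0 were called (0.725% of all tested genes), 6 had an unadjusted p under 0.05 (7.07% of all), and the median of the 29 was 0.01. Among them Socs3, a feedback inhibitor of cytokine signalling, measured 7.99 ± 2.33 RPKM (mean ± SD, n = 4) in PBS/DEC and 4.05 ± 1.07 in CpG-STAT3dODN/SCR libraries, a difference of -0.82 (limma adjusted p = 0.27). Socs1, a second such inhibitor, lay the other way at 0.94 (limma adjusted p = 0.479). Myc, the growth regulator, differed by 0.08 with an interval from -0.28 to 0.44.

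Tlr9 was low in every library. It read 3.00, 1.74, 1.90 and 8.10 RPKM in PBS/DEC replicates 1 to 4 and 0.642, 0.372, 0.505 and 0.774 in CpG-STAT3dODN/SCR replicates 1 to 4. The groups did not overlap, but replicate 4 of PBS/DEC stood well above the rest, and Tlr9 was not called (difference -1.40 ± 0.35, limma adjusted p = 0.183). It passed without both libraries numbered 4 (limma adjusted p = 0.0278) and without PBS/DEC replicate 4 alone (0.0389).

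Of 24 tested TLR9 signalling genes only Unc93b1 was called, against 0.725% of all tested genes, and the median of the 24 was -0.11. Unc93b1, the chaperone of nucleic acid sensing receptors (chr19:3935158-3949340), measured 48.0, 37.1, 39.5 and 72.8 RPKM in PBS/DEC replicates 1 to 4. In CpG-STAT3dODN/SCR replicates 1 to 4 it measured 14.97, 9.78, 15.2 and 12.8 RPKM. Its groups were apart, with a difference of -1.80 ± 0.22 (limma adjusted p = 0.0136). Without PBS/DEC replicate 1 or CpG-STAT3dODN/SCR replicate 2 the adjusted p of Unc93b1 was 0.0639 or 0.0592, and with the B cell covariate 0.433.

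The remaining genes named with the study concern leukaemic identity and differentiation. Kit, the receptor used for the enrichment, measured 10.5, 12.8, 37.8 and 22.9 RPKM in PBS/DEC replicates 1 to 4 and 27.6, 51.1, 25.7 and 37.4 in CpG-STAT3dODN/SCR replicates 1 to 4. PBS/DEC replicates 1 and 2 were the lowest 2 libraries, and the groups overlapped (difference 0.84, 95% interval -0.04 to 1.73, limma adjusted p = 0.763). Cd34, a progenitor antigen, ranged from 5.15 to 33.8 RPKM in PBS/DEC and from 8.70 to 43.1 in CpG-STAT3dODN/SCR libraries, and replicate 4 was the lowest of each group.

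Runx1, the partner of Cbfb, was higher in each CpG-STAT3dODN/SCR library (29.4 to 34.2 RPKM) than in any PBS/DEC library (23.4 to 26.9), but the difference of 0.30 did not pass (limma adjusted p = 0.311). Cbfb differed by 0.00 (interval -0.29 to 0.29) and Spi1, the master regulator PU.1, by 0.07 (interval -0.38 to 0.53). Cebpa, a granulocyte regulator, was low, at 2.75 ± 0.735 and 1.40 ± 0.481 RPKM, and was lower in each CpG-STAT3dODN/SCR library than in any PBS/DEC library. Itgam, which encodes CD11b, differed by -0.45. Neither Cebpa nor Itgam passed (limma adjusted p = 0.344 and 0.836). The DNA methylation genes Dnmt1, Dnmt3a and Tet2 differed by -0.07, -0.10 and -0.01. Of the 15 tested leukaemia and progenitor identity genes 0 were called (0.725% of all tested genes), 4 had an unadjusted p under 0.05 (7.07% of all), and the median was 0.15.

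Other called genes were outside the B cell list. Nr4a1, an orphan nuclear receptor that marks patrolling monocytes and is also an immediate early gene of antigen receptor signals (chr15:101253902-101274795), read 14.7, 22.5, 14.9 and 11.6 RPKM in PBS/DEC replicates 1 to 4. It read 5.24, 5.45, 5.92 and 6.17 RPKM in CpG-STAT3dODN/SCR replicates 1 to 4. The second group was tight and below every library of the first (difference -1.30 ± 0.18, limma adjusted p = 0.0158). In the libraries labelled CpG-scrODN (headed PBS) Nr4a1 was 11.8, 10.7, 14.3 and 24.7 RPKM, overlapping the PBS/DEC group. The call of Nr4a1 held in 3 of the 8 fits without 1 library, and was lost (limma adjusted p from 0.0596 to 0.0758) without PBS/DEC replicate 1 or 3 or CpG-STAT3dODN/SCR replicate 1, 2 or 3.

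Nfkbiz, a nuclear regulator of NF-kB (chr16:55811375-55838954), measured 7.61, 10.4, 7.50 and 8.91 RPKM in PBS/DEC replicates 1 to 4 and 3.95, 4.0, 3.28 and 4.08 in CpG-STAT3dODN/SCR replicates 1 to 4. The highest library of the second group was well below the lowest of the first, with a difference of -0.99 ± 0.12 (limma adjusted p = 0.0136). It was the only called gene of 26 in the NF-kB list, whose median was -0.46. Of the 26, 21 were below 0, and 9 had an unadjusted p under 0.05 in limma, 1 of them higher. Among all tested genes 0.725% were called and 7.07% had such an unadjusted p. The adjusted p of Nfkbiz was 0.0538 without PBS/DEC replicate 1, 0.0616 without CpG-STAT3dODN/SCR replicate 2 and 0.0878 with the B cell covariate.

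Plk2, a kinase induced by p53, was low but well separated, at 2.78, 3.34, 2.23 and 2.81 RPKM in PBS/DEC replicates 1 to 4 and 0.636, 0.304, 0.50 and 0.347 in CpG-STAT3dODN/SCR replicates 1 to 4 (difference -1.39 ± 0.13, limma adjusted p = 0.00527). It was the only called member of 23 cell cycle inhibitor and p53 genes, whose median was 0.07. Adgre1, an adhesion receptor of macrophages, fell by 1.10. With Nr4a1 it made 2 called of 32 monocyte and macrophage genes, a list with a median of -0.49 and 10 members whose groups did not overlap, all lower. Of all tested genes 0.725% were called lower and 4.25% were lower without overlap. Wdfy4, needed for cross-presentation by dendritic cells, fell by 1.48, 1 of 8 conventional dendritic genes. Ly6d, Spib and Blnk were the 3 called of 9 plasmacytoid dendritic genes, and B cells also express all 3.

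Of the type I interferon genes, which CpG can induce, 1 of 27 was called. This was Ifi203, a member of the interferon-inducible DNA sensing family, which fell by 1.47 (limma adjusted p = 0.0136), and the median of the list was -0.41. Of the 27, 24 were below 0, and 11 had an unadjusted p under 0.05 in limma, 0 of them higher. For this and the lists that follow, the shares over all tested genes were 0.725% called and 7.07% at such an unadjusted p. Interferon gamma response GTPases and related genes had 0 called of 15, 5 at an unadjusted p under 0.05, and a median of -0.67. JAK-STAT components had 0 called of 34, 7 unadjusted, and a median of -0.08. Irf8 was the only called gene of 25 myeloid and stem cell transcription factors, whose median was -0.39. Ctsh, a lysosomal protease, fell by 1.64 as the only called gene of 29 in the lysosome list. Icosl, the ligand of the T cell costimulator ICOS, fell by 1.22, 1 of 16 checkpoint and costimulation genes. Pecam1, an adhesion molecule of endothelium and leukocytes, fell by 1.74, 1 of 3 stroma and endothelium genes tested. Of these, Ifi203 and Ctsh were each lost without PBS/DEC replicate 1 or CpG-STAT3dODN/SCR replicate 2. Icosl held in 5 of the 8 fits without 1 library, and Adgre1, Wdfy4 and Pecam1 in 2 each.

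Genes of antigen presentation through MHC class II, which B cells and other presenting cells carry, were below 0 in 14 of 18 tested members without passing. Of the 18, 0 were called, 13 had an unadjusted p under 0.05, 10 did not overlap between groups, and the median was -1.35. The shares over all tested genes were 0.725%, 7.07% and 5.07%. Cd74, the invariant chain that escorts class II molecules, measured 370, 312, 332 and 1019 RPKM in PBS/DEC replicates 1 to 4. It measured 134, 81.2, 103 and 302 RPKM in CpG-STAT3dODN/SCR replicates 1 to 4. Each library numbered 4 was about as far above its own group as the groups were apart, and the difference of -1.71 ± 0.49 did not pass (limma adjusted p = 0.283). H2-Aa, a class II alpha chain, behaved alike (162, 136, 180 and 558 RPKM against 61.1, 36.2, 50.03 and 158 RPKM, limma adjusted p = 0.363). Without both libraries numbered 4, 11 of the 18 were called lower, with an adjusted p of 0.0086 for Cd74 and 0.0109 for H2-Aa.

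Ciita, the transcriptional activator of class II genes (chr16:10480014-10531064), read 6.66, 4.30, 5.66 and 15.8 RPKM against 2.10, 1.11, 1.55 and 1.25 RPKM. These groups did not overlap, the difference was -1.73 ± 0.33, and the limma adjusted p was 0.0679. It was 0.0184 without both libraries numbered 4 and 0.0163 without PBS/DEC replicate 4 alone. MHC class I genes had 0 called of 21 (0.725% of all tested genes), 4 at an unadjusted p under 0.05 (7.07% of all), and a median of -0.14. B2m, the light chain of class I, was highest in replicate 4 of each group, at 882 and 550 RPKM.

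Among lists of housekeeping and growth functions, called members were 0 of 33 for oxidative phosphorylation (median 0.00), 0 of 23 for glycolysis (0.01), 0 of 31 for DNA and histone modifiers (-0.03) and 0 of 25 for the unfolded protein response (-0.07). Ribosomal protein genes were 0 of 47 with a median of 0.11 and 2 members below 0. Cell cycle genes were 0 of 38 with a median of -0.26, and 37 of the 38 were below 0. At an unadjusted p under 0.05 in limma, the counts were 0 for oxidative phosphorylation, 1 for glycolysis, 0 for the modifiers, 1 for the unfolded protein response, 4 for ribosomal proteins and 1 for the cell cycle. Over all tested genes 0.725% were called and 7.07% had such a p, so 0 called members is near the share over all genes.

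Markers of other spleen and marrow cells varied within groups. Cpa3, a mast cell protease also present in myeloid progenitors, ranged from 84.7 to 1162 RPKM in PBS/DEC and from 232 to 1888 in CpG-STAT3dODN/SCR libraries, and replicate 4 was the lowest in each group. Itga2b, the platelet integrin CD41, ranged from 15 to 90.9 and from 26.6 to 142 RPKM with the same order. Neither was called, and the medians of the mast cell and megakaryocyte lists were 0.25 and 0.39, with 0 called of 13 and of 12 and with 4 and 0 members at an unadjusted p under 0.05. Erythroid genes were 0 called of 28 (0 at an unadjusted p under 0.05, median -0.20), and their mean log2(RPKM + 1) ranged from 4.45 to 6.92 in PBS/DEC and from 4.51 to 6.21 in CpG-STAT3dODN/SCR libraries. Neutrophil genes were 0 of 28 (4 unadjusted, median -0.23), with S100a9, an abundant granulocyte protein, from 682 to 1929 RPKM and from 792 to 1650 RPKM. Primary granule genes, markers of early myeloid cells, were 0 of 19 (7 unadjusted, median -0.43). Of the 19, 13 were below 0, and the 7 with an unadjusted p under 0.05 were all lower. The most abundant of them, the proteoglycan Srgn, lay the other way at 716 ± 98.7 and 881 ± 125 RPKM (mean ± SD, n = 4), without passing (limma adjusted p = 0.706). T cell markers reached the filter for 4 of 16 genes and NK cell markers for 3 of 10, among them Gzmb, a cytotoxic protease, at 4.02 ± 2.13 and 1.41 ± 0.903 RPKM. Beside the counts of these lists, 0.725% of all tested genes were called and 7.07% had an unadjusted p under 0.05.

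**Figure D3:**
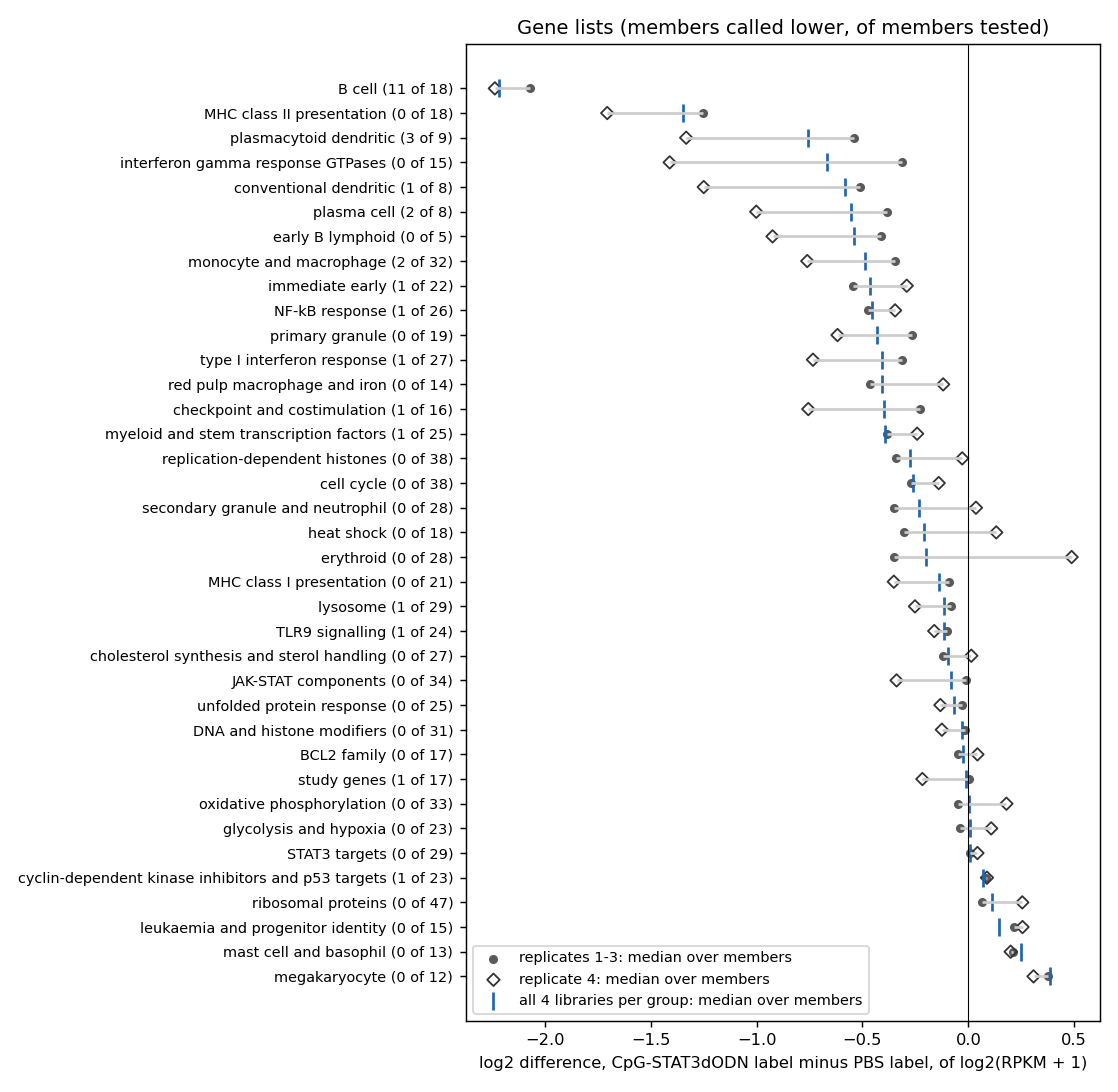
Median difference of log2(RPKM + 1), CpG-STAT3dODN label (headed SCR) minus PBS label (headed DEC), over the tested members of each gene list with at least 5 of them. Filled circles are replicates 1 to 3, open diamonds replicate 4 and blue ticks all 4; labels give members called lower of members tested. The B cell list (11 of 18) lies lowest at -2.22, followed by MHC class II at -1.35.

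Y-linked transcripts also differed between libraries, which was noticed after the values were seen. The summed RPKM of Ddx3y, Eif2s3y, Kdm5d and Uty was 8.78, 8.22, 0 and 19.5 in PBS/DEC replicates 1 to 4. It was 3.14, 1.69, 4.35 and 5.78 in CpG-STAT3dODN/SCR replicates 1 to 4. The female-specific transcript Xist was present in all 8 libraries, at 42.6, 43.1, 65.3 and 19.1 RPKM and at 55.8, 77.5, 51.6 and 17.6 RPKM. The libraries thus held RNA with both kinds of transcript, except PBS/DEC replicate 3, where the 4 Y-linked genes are listed at 0. In that library the B cell list's mean was 3.90, within the range of its group, and Ms4a1 measured 30.1 RPKM. The part of a mixture of cells in the result was not tested.

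**Figure D4:**
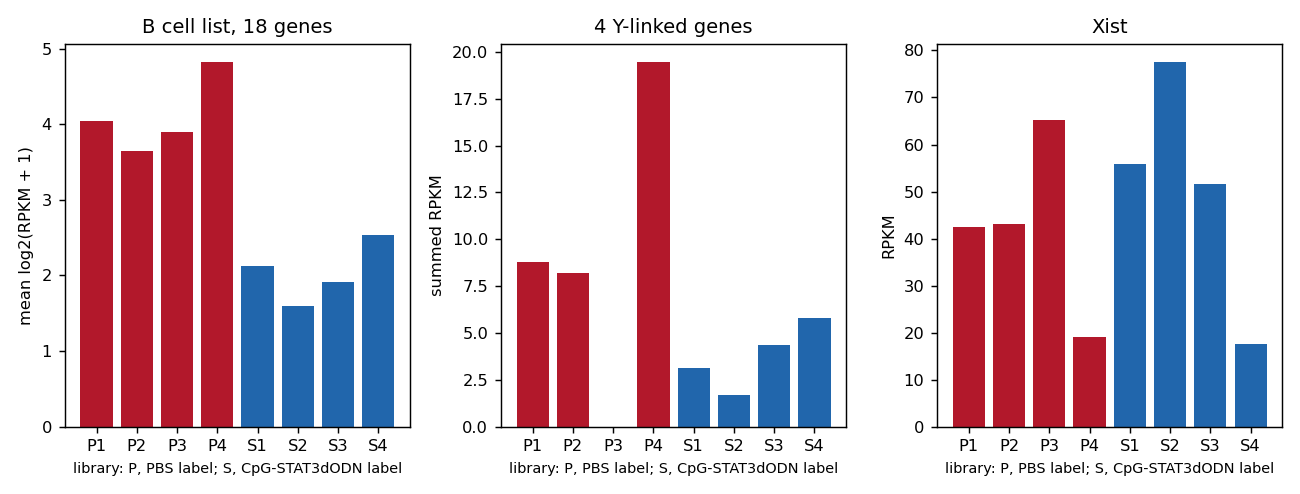
Bars give, for each of the 8 libraries (P1 to P4 labelled PBS and headed DEC, S1 to S4 labelled CpG-STAT3dODN and headed SCR), the mean log2(RPKM + 1) of 18 B cell genes, the summed RPKM of 4 Y-linked genes and the RPKM of Xist. The B cell mean is 3.64 to 4.82 in the first group and 1.60 to 2.53 in the second, and the Y-linked sum is 0 in P3.

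Replicate 4 of both groups stood apart from the other 6 libraries. Both libraries numbered 4 lay above each of the other 6 in 2680 tested genes (24.9%) and below each of them in 2292 (21.3%), by over 1 log2 unit in 124 and 85 genes. Correlations of log2 values within a group, over the tested genes, were 0.9279 to 0.9881 for PBS/DEC and 0.9272 to 0.9930 for CpG-STAT3dODN/SCR libraries, with the lowest values for pairs that include replicate 4.

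The genes highest in both included Traf1, an adaptor of TNF receptors induced by NF-kB. It read 58.8 RPKM in PBS/DEC replicate 4 and 51.7 in CpG-STAT3dODN/SCR replicate 4. The other 6 libraries read 2.33 to 2.97 RPKM in PBS/DEC and 0.733 to 0.933 in CpG-STAT3dODN/SCR. Without both libraries numbered 4, Traf1 passed as lower in CpG-STAT3dODN/SCR (limma adjusted p = 0.00888). Relb, a subunit of NF-kB itself, read 69.8 and 64.9 RPKM against 5.65 to 7.08. Sqstm1, the autophagy receptor p62, read 733 and 767 RPKM against 61.2 to 86.2. These genes separated both libraries from the rest by several-fold or more and hardly differed between the 2. Csf2rb and Csf2rb2, which encode beta chains of cytokine receptors and share much of their sequence, and Spint1, a protease inhibitor, completed the 6. Since reads of near-identical genes can be split between them, the values of that Csf2rb pair are uncertain.

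The lowest in both were stress and immediate early genes. Fos, a subunit of AP-1, read 12.9 and 5.91 RPKM in replicate 4 of PBS/DEC and of CpG-STAT3dODN/SCR against 486 to 1156 RPKM in the other 6, and Jun, its partner, 14.1 and 8.68 against 262 to 549. Fosb, Dusp1 and the heat shock genes Hspa1a and Hspa1b were the others. Of 22 immediate early genes 11 were lower in both libraries numbered 4 than in each of the other 6, and 3 were higher. Of 28 neutrophil genes 15 were lower and 0 higher, and of 38 histone genes 16 were lower and 2 higher. Of 26 NF-kB genes 11 were higher and 3 lower, of 17 BCL2 family genes 8 and 2, and of 27 cholesterol genes 11 and 2. Over all tested genes 24.9% were higher and 21.3% lower. The lists given here are some of the 40, picked without a set rule, and no list was tested.

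**Figure D5:**
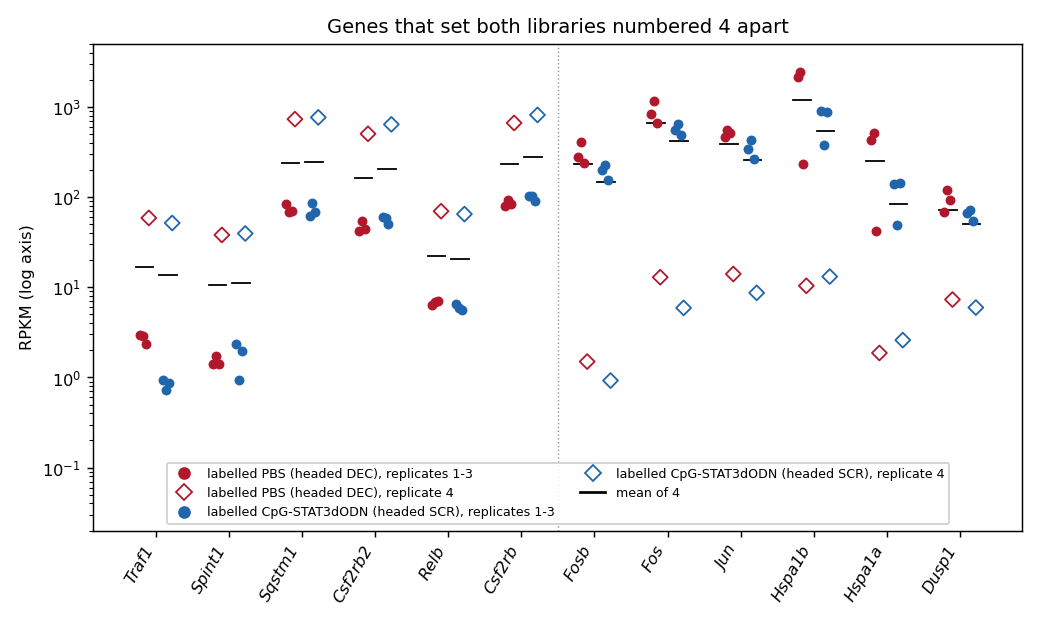
RPKM on a log axis for the 6 genes most above and the 6 most below the other 6 libraries in both libraries numbered 4. Colours and symbols mark label with header and replicate; open diamonds are replicate 4. The diamonds of both colours stand together, as for Relb (69.8 and 64.9 RPKM against 5.65 to 7.08).

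Within replicate 4, the 78 called genes kept their direction. The replicate 4 difference, CpG-STAT3dODN/SCR minus PBS/DEC, was below 0 in 78 and below -1 in 71. Its median over the 78 was -1.95, against -1.43 for replicates 1 to 3, and it was the larger fall in 66. These differences were part of what called the genes and have no replicate of their own. Ly6d differed by -3.87 in replicate 4 and -3.39 in replicates 1 to 3, Ms4a1 by -3.50 and -2.89, and Irf8 by -2.62 and -1.83. Nr4a1 differed less in replicate 4, by -0.81 against -1.47, and Nfkbiz about equally, by -0.96 and -0.99. The PBS/DEC group had its highest value of a called gene in replicate 4 for 55 of the 78 and its lowest in replicate 2 for 50.

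No gene passed as higher in the CpG-STAT3dODN/SCR libraries. The closest, named after their values were seen, were Asap2, an Arf GTPase-activating protein, and Amigo3, a leucine-rich repeat membrane protein. Asap2 measured 1.98, 2.19, 2.45 and 2.15 RPKM in PBS/DEC replicates 1 to 4 and 3.36, 3.34, 3.44 and 3.87 in CpG-STAT3dODN/SCR replicates 1 to 4, without overlap, a difference of 0.50 ± 0.10 (limma adjusted p = 0.0696). Amigo3 differed by 0.56 ± 0.11 (limma adjusted p = 0.0759).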

How the data were processed

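RNA-seq of 12 libraries was deposited as RPKM per gene, with 24310 features each, and the 8 libraries of this comparison were analysed. Per the submitters' processing notes the build was mm10, and TopHat 1.3.1 and Partek 6.12.0713 were used, with no role stated. The sources used here do not give filters or annotation. Groups came from the sample labels, and headers differed from labels in all 12 files. RPKM was used as deposited by the authors. Depth was estimated as the read total that best turned low RPKM values into whole reads, with lengths of genes that have a single GENCODE transcript. It was 31440000 to 36230000 reads, so an RPKM of 1 was 31.4 reads or more per kilobase. Whole reads came out for 61.3% to 65.8% of low values, within 0.05 of a read, too few for a count test. No library pair was identical. In 27 features the symbol had become a date, and 2 symbols repeated; none is named. Some named genes are not reported here but stay in every count.

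Values were analysed as log2(RPKM + 1), which understates changes of low genes, with limma 3.58.1 in R 4.3.3 (moderated variances, intensity trend, no covariate, two-sided). Intervals are 95% intervals, unadjusted. On simulated data for 10764 genes, 50 changed at each size, the fit recovered 22%, 86%, 96% and 100% of changes of 0.5, 1, 2 and 3 log2 units, with 13 false calls. Gene lists (40, of which 37 had 5 or more tested members) are described by counts and medians, with no test of a list. The members and lists were chosen with earlier results of these data known. Named genes were those named with the study, the 15 largest falls (mean RPKM of at least 2, no overlap) and up to 10 rises, up to 3 called members of each list, examples from lists with none called (up to 2), and 6 genes in each direction for replicate 4 (mean RPKM of at least 10); others are marked as chosen after their values were seen. Coordinates and upstream sequences are from RefSeq, GRCm38. The closing section gives the effect of other pseudocounts, filters, scalings, weights, terms and left-out libraries.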

Additional observations from a re-analysis of the deposited data

Results flagged for a closer look

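Among 63 genes looked at in both groups of 4 libraries, 126 groups in all, 23 had a highest or lowest library set apart from its group, with a gap to the nearest library of over 0.83 of the group's range. Of these, 21 concern replicate 4, and 13 of them come from genes picked because replicate 4 was extreme in both groups, so they restate that choice. Chance flags about 1 in 20 groups.

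In replicate 4 of the libraries labelled PBS (headed DEC), the library was highest for Cbfb (50.6 RPKM, others up to 37.9), Blnk (27.8, up to 15.7), Blk (17.9, up to 8.39), Cd74 (1019, up to 370), H2-Aa (558, up to 180) and B2m (882, up to 510). It was also highest for Traf1 (58.8), Spint1 (38.1), Sqstm1 (733), Csf2rb2 (504), Relb (69.8) and Csf2rb (665), and lowest for Jun (14.1, others from 463). In replicate 4 of the libraries labelled CpG-STAT3dODN (headed SCR), the library was highest for Spi1 (95.4 RPKM, others up to 63.1) and Dnmt3a (7.72, up to 5.91). The same held for Traf1 (51.7), Spint1 (39.5), Sqstm1 (767), Csf2rb2 (642), Relb (64.9) and Csf2rb (817).

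Replicate 3 of the libraries labelled CpG-STAT3dODN (headed SCR) was the highest of its group for S100a9 (1650 RPKM, others up to 882) and the lowest for Nfkbiz (3.28 RPKM, others from 3.95). Causes were not tested.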

How the results depend on the processing

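With 78 genes called as reported, all lower in the libraries labelled CpG-STAT3dODN (headed SCR), quantile normalization called 75 (1 higher and 74 lower), 72 of the 78 among them. Size factor scaling called 85 (77 of the 78), a pseudocount of 0.1 called 88 (75 of the 78) and no filter called 73 of 18847 genes (4 higher, 69 lower), 46 of the 78 among them. Counts moved by over 1.5 times elsewhere: 46 with an RPKM floor of 5 (all lower), 202 with all 12 libraries in a joint fit (3 higher, 199 lower), 850 with library quality weights (370 and 480) and 220 without both libraries numbered 4 (6 and 214). The B cell list's mean as a covariate gave 831 (522 and 309), with only 8 of the 78 among them and a lowest limma adjusted p of 0.0395. Of alternatives chosen after seeing the data, a term for the libraries numbered 4 gave 371 (53 and 318), and that term with the B cell covariate gave 0, with 65 genes at an unadjusted p under 0.05. Leaving out single libraries gave 15 to 119 called, 0 to 1 higher and 15 to 119 lower. The cause was not tested. With the replicate block the count was 205 (7 higher, 198 lower), 76 of the 78 among them. Correlations of deviations from the group means were 0.327, 0.086 and -0.033 between libraries numbered 1, 2 and 3. Between those numbered 4 the correlation was 0.817. Deviations within a group depend on each other, so these values do not settle whether the numbers mark pairs.

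Some signs turned. With the B cell covariate the differences were 0.91 for Tlr9, 0.74 for Cbfb, 0.032 for Cebpa, 0.21 for Ciita, -0.64 for Myc, -2.80 for Cd34, 0.88 for Dnmt3a, 0.65 for Fcrla, 0.30 for Cd2, 0.13 for Cd72, 0.56 for Spib, 0.47 for Blk, 0.65 for Gzmb, 1.85 for Cd74, 2.27 for H2-Aa, 1.14 for B2m, -4.48 for Cpa3, -3.65 for Itga2b and 0.21 for Pecam1. Fcrla, Cd72 and Blk belong to the list whose mean is the covariate, so they were adjusted in part for themselves. The groups account for a share of 0.873 of that mean's variance, so this fit cannot separate the groups from the covariate. The remaining reversals were of differences near 0. Size factor scaling gave 0.015 for Cbfb and 0.002 for Tet2, quality weights 0.12 for Cbfb, 0.029 for Dnmt1 and 0.093 for Tet2, quantile normalization 0.088 for Tet2, and leaving out both libraries numbered 4 gave 0.069 for Cbfb and 0.078 for Tet2. Without single libraries Stat3 ranged from -0.066 to 0.114, Cbfb from -0.055 to 0.112, Spi1 from -0.081 to 0.206, Myc from -0.043 to 0.199, Dnmt1 from -0.144 to 0.027, Dnmt3a from -0.190 to 0.028 and Tet2 from -0.101 to 0.065. In the simulated data with 4 libraries a group, which lacked the shift shared by the libraries numbered 4, changes of 0.5 log2 units were mostly not recovered.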
